A study of Rattus norvegicus with 6 samples.

Results

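The receptors described here are G protein-coupled receptors for vasoactive mediators: endothelin, kinins, nucleotides, adenosine, catecholamines, acetylcholine, prostanoids, lysophospholipids, thrombin, vasopressin, oxytocin and endocannabinoids. They were chosen from a list of 37 genes, keeping every probe set that the platform annotation assigns to exactly 1 gene, under its current or an older symbol. Of the 37 genes, 33 had such probe sets, 48 in all among the 8740 on the array, so 4 genes have no value here. For Ednra, Ednrb and S1pr3 no probe set carried the gene's name, and the 3 probe sets naming Adora3 each list a pair of gene identifiers and were left out. The cultures were primary cardiac fibroblasts from the ventricles of Sprague-Dawley rats aged 1-2 Days. The control group was 3 cultures given water, and the treated group was 3 cultures given pertussis toxin (PTX) for 24 h. Neither the toxin's dose nor the origin of the replicates (1 cell isolation or several) is given, so the p-values reflect the spread of these arrays alone, and that spread may be technical.

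A G protein-coupled receptor passes its signal on through the G protein it binds. Gs raises cyclic AMP, Gi lowers it and also acts through its beta-gamma subunits, and Gq activates phospholipase C beta and releases calcium. PTX modifies the alpha subunit of Gi and Go and thereby cuts these proteins off from their receptors, while Gs and Gq are not its substrates. In cardiac fibroblasts receptors of these families are known to act on proliferation, collagen production and the release of inflammatory mediators. The receptors are therefore taken in 4 classes by their textbook coupling: 8 measured genes of the Gs class, 8 of the Gi class, 14 of the Gq class, and 3 receptors that couple to several of Gi, Gq and G12/13. The toxin acts on protein, so no transcript on the array checks the labels.

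All values are probe set signals on a linear scale from 1-colour Affymetrix arrays, 1 array per culture, and 2 probe sets cannot be compared with each other as levels. Median signals lay between 63.1 and 68.85 on the 6 arrays, and precision is limited by having 3 arrays a group. Control replicate 1 stood apart, with a correlation across probe sets of 0.952 to 0.960 with the other arrays against 0.978 to 0.985 among those. Of 16 measured fibroblast markers, 15 were above the background limit defined next on all 6 arrays, but so were 14 of 15 cardiomyocyte markers, 6 of 7 smooth muscle markers and 4 of 9 macrophage markers. Of all probe sets on the array 44.2% were, near the share of the macrophage list. In that list Fcgr2b, Cd14, C1qb and C1qc were above it on all 6 arrays, with signals from 156.5 (C1qc) to 647.6 (Fcgr2b). Ptprc, Csf1r and Cd74 were above it on 0 arrays. Of 8 endothelial markers 1 was above it on all 6 arrays (Thbd), while Pecam1 and Vwf were above it on 0 arrays. Of 9 Schwann cell and neuronal markers 2 were above it on all 6. The cardiomyocyte markers Myl2, Myh7, Actc1 and Nppa ranked at the 99.91 to 99.99 percentile of all probe sets. Col3a1, the brightest fibroblast marker, ranked at 99.14. The summed signal of the fibroblast markers was 116244 to 134146 in the controls and 117992 to 122048 with PTX. Sums over different probe sets do not give the share of each cell type. The summed signal of the cardiomyocyte markers was 314254 to 410021 in the controls and 273532 to 305490 with PTX. The highest control sum was that of control replicate 1, where Myl2 had 69880.4 against 44122 and 43001.4 on the other controls. Of the 14 cardiomyocyte markers tested on their brightest probe set, 12 had a negative log2 change. Pln (0.20) and Casq2 (0.22) went the other way, and both were lowest on control replicate 1 (2897.1 and 1276.5). The sum of the Schwann cell and neuronal markers was 3775 to 4258 and 3557 to 3620, and those of the other lists overlapped between the groups. Most of the Schwann cell and neuronal sum was Pmp22, with 3345.1 to 3680.1 in the controls and 3085.2 to 3140.8 with PTX (log2 change -0.18). Th had a log2 change of 0.54, the other way. A receptor signal from these cultures is that of all cells present, fewer cells of a type and less RNA per cell cannot be told apart, and the part of these markers in the receptor values was not tested.

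Of the 33 measured receptor genes, 13 had a signal above background on all 6 arrays. Background was read from 87 probe sets of 53 genes that are restricted to other tissues, such as insulin, growth hormone and crystallin genes. On each array the limit was the 90th percentile of their signals, which lay between 44.4 and 66.3. Above it on all arrays were 4 receptors of the Gs class (Adrb1, Ptger4, Adora2a and Adora2b), 6 of the Gq class (P2ry2, P2ry6, Adra1b, Adra1d, F2rl1 and Ptgfr), and all 3 of the class with several G proteins (Lpar1, S1pr2 and F2r). Of the 8 measured Gi-class receptors, Adra2a, Adra2b, Adra2c, S1pr1, Ptger3, Adora1, Chrm2 and Cnr1, 0 were. Adora1 and the brightest probe set of Ptger3 each missed it on a single array, being above the limit on 5 of 6. Adora1 fell below it on PTX replicate 3 and Ptger3 on control replicate 2. Of all probe sets on the array 44.2% passed this limit, against 15 of the 48 receptor probe sets. At the 95th percentile of the same reference 8 receptors remained (Adrb1, P2ry2, P2ry6, Adra1b, Ptgfr, Lpar1, S1pr2 and F2r), and at the 80th percentile 14, Ptger3 being the one added. A signal below the limit does not show that a transcript was absent, and one above it does not show that it was present. Of the 87 reference probe sets themselves 5 were above it on all 6 arrays. Among these, a probe set of Ins2 had signals of 160 to 247.2 and one of Apoc3 105 to 192.9.

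**Figure D1:**
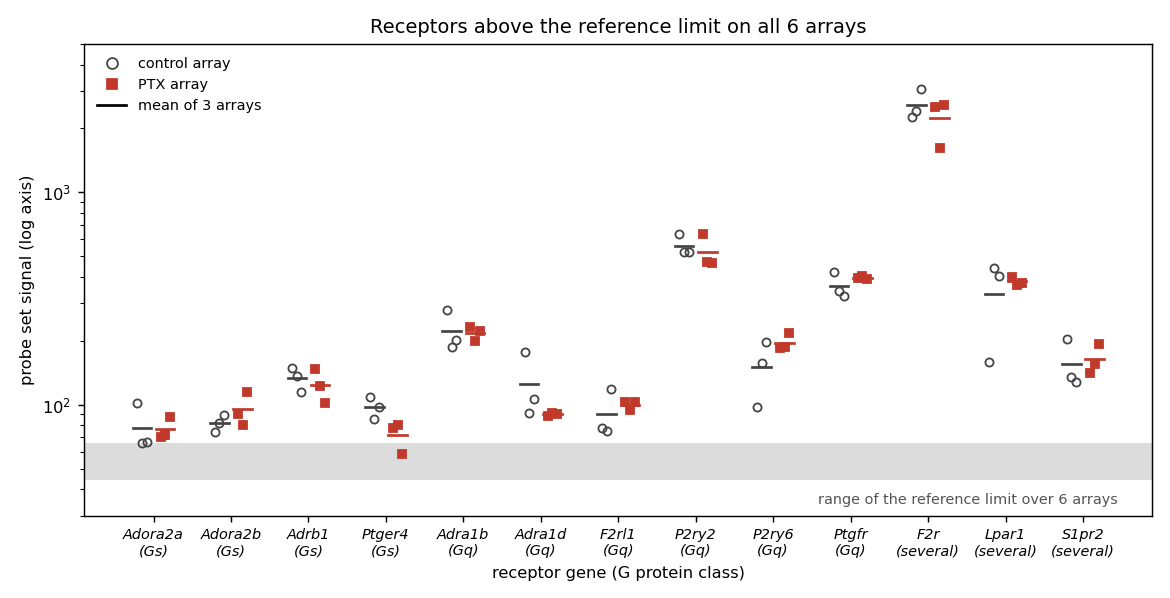
Probe set signal (log axis) of the 13 receptor genes above the reference limit on all 6 arrays, each by its brightest probe set, with the G protein class in brackets. Circles are control arrays, squares PTX arrays, bars the means of 3 arrays, and the grey band spans the limit on the 6 arrays (44.4 to 66.3); Ptger4 is the one receptor shown whose PTX arrays all lay below its control arrays.

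No receptor probe set passed the test between PTX and control. The test was limma on log2(signal + 16), adjusted by Benjamini-Hochberg over the 5244 probe sets at or above the 40th percentile of mean log2 signal. These include 26 receptor probe sets of 22 genes. Of all probe sets tested, 0.0763% were called at an adjusted p under 0.05 (4 probe sets, each higher). At an unadjusted p under 0.05 limma marked 1 of the 26 receptor probe sets, a lower one, against 4.61% of all tested as lower and 12.6% in either direction. Control and PTX arrays were fully separated for 2 of the 26, or 7.69%, against 22.6% of all tested. Of the 22 receptor probe sets too low to be tested 4 were separated, against 11% of all such probe sets. These shares are descriptive, as the receptors were chosen with earlier results of these data known. The receptor probe sets had 13 positive and 13 negative log2 changes with a median of 0.01, while 47.1% of all tested probe sets were positive (median -0.02). With control replicate 1 left out the median of these 26 was 0.13 and again 0 receptor probe sets were called, with a smallest adjusted p of 0.179.

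**Figure D2:**
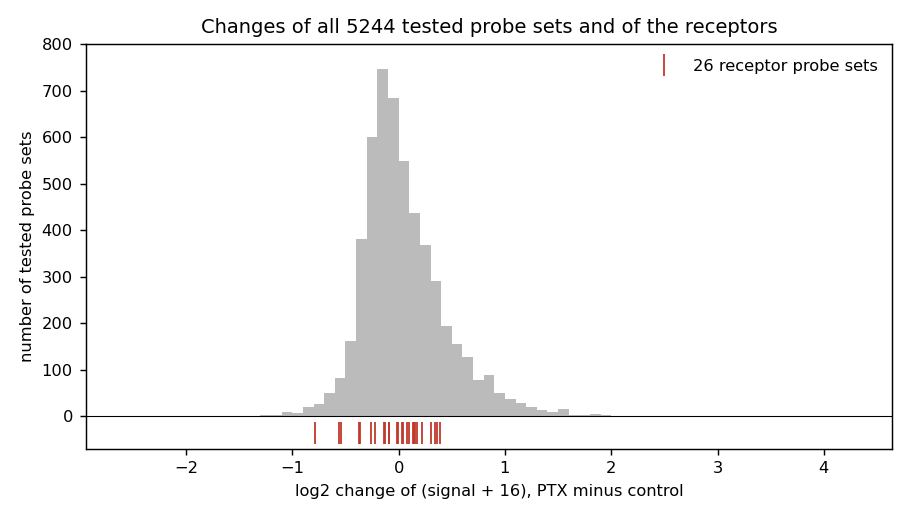
Histogram of the log2 change of (signal + 16), PTX minus control, for the 5244 tested probe sets, with the 26 receptor probe sets as red ticks. The receptors lie between -0.78 and 0.39 around a median of 0.01.

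The 95% intervals show which sizes of change in signal + 16 these arrays leave possible. This scale understates changes of low signals, so the limits for the signal itself are wider than the folds given here. The intervals lay within 2-fold in either direction for 18 of the 26 receptor probe sets and within 4-fold for all 26. The widest limits were 0.325-fold and 2.55-fold. The absence of calls therefore does not show that these receptors kept their level. The intervals of 19 of the 26 include a change of over 1.5-fold.

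**Figure D3:**
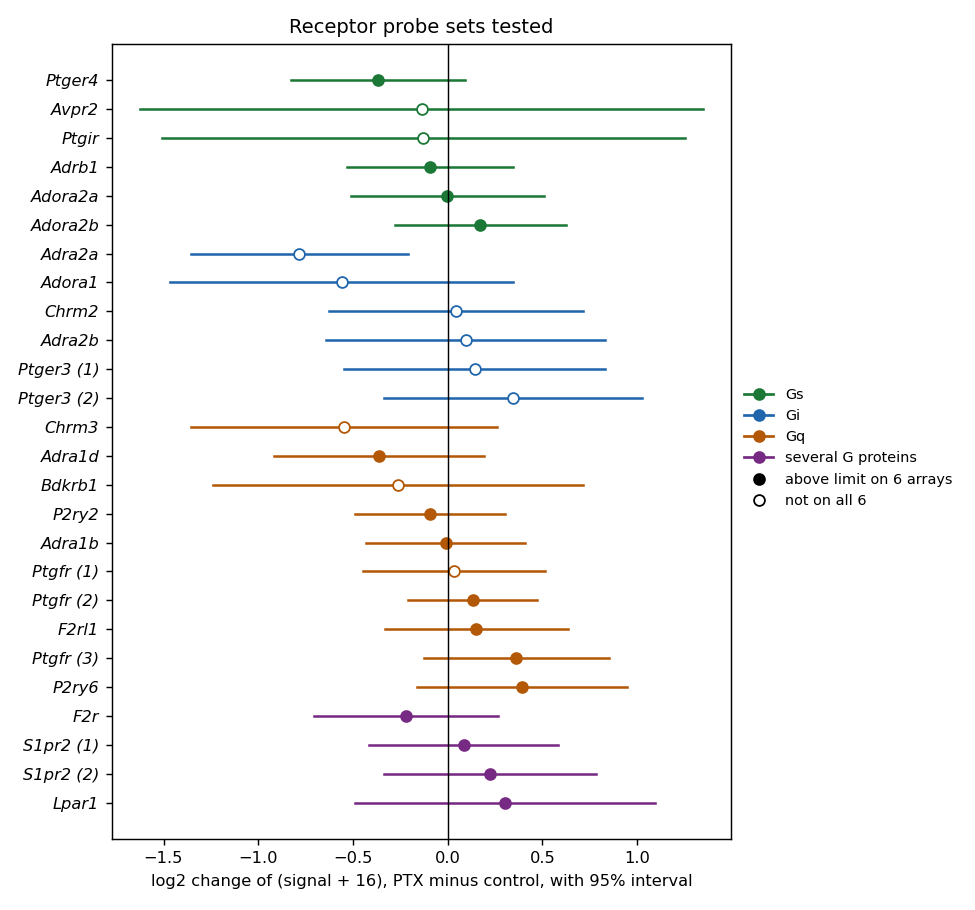
Log2 change of (signal + 16), PTX minus control, with its 95% interval from limma, for the 26 tested receptor probe sets, coloured by G protein class. Filled points were above the reference limit on all 6 arrays; numbers in brackets tell apart probe sets of 1 gene, and the interval of Adra2a alone lies wholly on one side of 0.

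Among the Gi-class receptors, whose signalling the toxin blocks, Adra2a gave the smallest p of the list. It encodes an alpha2-adrenergic receptor, which responds to noradrenaline and adrenaline. Its probe set S79778mRNA_s_at had signals of 67.8, 75.8 and 85.2 in the controls and 40.3, 25.3 and 49.6 with PTX. All 3 PTX arrays lay below all 3 control arrays, and they also lay below the background limit, which the control arrays exceeded. The margin was narrow on PTX replicate 3 (49.6 against a limit of 49.7) and on control replicate 1 (67.8 against 66.3). The means were 76.3 ± 8.71 and 38.4 ± 12.3 (SD, n = 3 each), 1.72-fold lower with PTX on the log2(signal + 16) scale (log2 change -0.78 ± 0.25 SE, 95% interval -1.36 to -0.21). It did not pass, with an unadjusted p of 0.0135 and a limma adjusted p of 0.307, and its adjusted p lay between 0.130 and 0.682 over the alternatives run. A further pair of Adra2a probe sets had signals too low to be tested, with means of 15.2 and 20.1 in the controls and 16.5 and 15.4 with PTX and overlapping groups. Both were below the background limit on every array, with log2 changes of 0.13 and -0.18, so the groups separated on S79778mRNA_s_at alone.

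The other Gi-class receptors gave no call either. The tested ones were Adra2b, another alpha2-adrenergic receptor (log2 change 0.10), Adora1, the adenosine receptor that slows the heart (-0.56), Chrm2, the muscarinic receptor of the heart (0.05), and Ptger3, a prostaglandin E2 receptor. Ptger3 had 0.34 and 0.14 on its tested probe sets, and Adora1 had signals of 112.4, 81 and 53.9 in the controls and 55.5, 84.1 and 22 with PTX. Without control replicate 1 the log2 change was 0.41 for Adra2b, -0.35 for Adora1, 0.15 for Chrm2 and 0.61 and 0.19 for Ptger3. The groups overlapped for each of these. S1pr1, a receptor for sphingosine 1-phosphate, was below the limit on every array and was not tested. Its signals were 33.8, 14.8 and 17.4 in the controls and 7.2, 1.2 and 14 with PTX, so its groups did not overlap. Cnr1, the cannabinoid receptor of neurons, likewise had 13.8, 9.3 and 24.8 in the controls and 5.6, 2.5 and 9.2 with PTX, all below the limit. With no filter on low signals the limma adjusted p was 0.489 for S1pr1 and 0.504 for Cnr1. Over the tested Gi-class probe sets the median log2 change was 0.07, and with control replicate 1 left out it was 0.17.

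Of the Gs-class receptors, Ptger4 had groups that did not overlap. It encodes a prostaglandin E2 receptor that raises cyclic AMP. Its signals were 109.2, 85.5 and 97.3 in the controls and 77.8, 80.1 and 58.3 with PTX, all above the background limit. The means were 97.3 ± 11.9 and 72.1 ± 11.98 (SD, n = 3 each), a log2 change of -0.37 ± 0.20 SE with a 95% interval of -0.83 to 0.09. The limma adjusted p was 0.450, and it lay between 0.396 and 0.724 over the alternatives run. PTX arrays lay wholly below control arrays for 10.6% of all tested probe sets, against 2 of the 26 of the receptors, Adra2a and Ptger4.

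Adrb1, Adora2a and Adora2b, the other Gs-class receptors above background, had overlapping groups. Adrb1, the main beta-adrenergic receptor of heart muscle cells, had 148.3, 135.9 and 114.6 in the controls and 147.6, 122.6 and 102.3 with PTX (log2 change -0.09, 95% interval -0.53 to 0.34, adjusted p = 0.830). Adora2a and Adora2b are the adenosine receptors that raise cyclic AMP. Adora2a had 101.7, 65.6 and 66.7 in the controls and 70.4, 72.3 and 87.5 with PTX, and its log2 change of -0.0028 turned to 0.17 without control replicate 1, its highest array. Adora2b had 74.1, 82.1 and 89.7 in the controls and 90.6, 79.9 and 114.7 with PTX (log2 change 0.17, 95% interval -0.28 to 0.62).

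Ptgir and Avpr2 were tested but fell below the limit on some arrays. Ptgir, the prostacyclin receptor, scattered within both groups, with 163.1, 35.8 and 170.4 in the controls and 42.8, 193.4 and 91.3 with PTX. Its log2 change was -0.13, or 0.16 without control replicate 1, and its 95% interval of -1.51 to 1.25 on the log2 scale leaves a change of 2-fold in either direction possible. Avpr2, the vasopressin receptor of the kidney, had a log2 change of -0.14 on its tested probe set (0.26 without control replicate 1), while Adrb3 and Ptger2 were too low to be tested. The median log2 change of the tested Gs-class probe sets was -0.11, and without control replicate 1 it was 0.14. Without PTX replicate 1, Adora2a (0.05), Adora2b (0.20), Ptgir (0.32) and Avpr2 (0.45) were positive, and Ptger4 (-0.42) and Adrb1 (-0.21) negative. The sign of the median thus does not rest on control replicate 1 alone.

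The Gq class, the largest of the 4, had 6 of its 14 receptors above background, and none of its tested probe sets had groups that did not overlap. P2ry2, a receptor for extracellular ATP and UTP, had signals of 633.7, 522.2 and 521.3 in the controls and 639.5, 472.2 and 466 with PTX. Its log2 change was -0.09 ± 0.17 SE (95% interval -0.49 to 0.30, adjusted p = 0.807), and it lay between -0.24 and -0.0039 when single arrays were left out. P2ry6, a receptor for UDP, had 97.6, 157.1 and 196.3 in the controls and 184.2, 186.1 and 217.7 with PTX. Its log2 change of 0.39 (95% interval -0.16 to 0.95, adjusted p = 0.491) became 0.14 without control replicate 1, which held the lowest signal. Of the third nucleotide receptor, P2ry1, signals were 2.5 to 26.7, below the limit on every array.

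The alpha1-adrenergic receptors drive smooth muscle contraction and heart muscle growth. Adra1b had 278, 187.2 and 201.4 in the controls and 231.3, 199.3 and 222.1 with PTX, with overlapping groups and a log2 change of -0.01 (95% interval -0.43 to 0.41). Adra1d had 176.5, 91.4 and 106.6 in the controls and 88.1, 91.6 and 90.3 with PTX on its brighter probe set, where control replicate 1 was the highest array. That gave a log2 change of -0.36 (adjusted p = 0.515), or -0.11 without that array. Its dimmer probe set, M60654_at, had 17.5, 10.8 and 8.9 in the controls and 39.2, 26.1 and 22.7 with PTX. These signals did not overlap, but all were below the limit and the probe set was not in the test; with no filter its limma adjusted p was 0.447. Adra1a was too low to be tested.

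Ptgfr, the prostaglandin F2-alpha receptor, was read by 3 probe sets, all with positive log2 changes of 0.03, 0.13 and 0.36. The brightest had 420.4, 343 and 324.2 in the controls and 395.8, 402.9 and 389.9 with PTX, with PTX arrays inside the control range and an adjusted p of 0.688. The probe set with the largest change, U26663_s_at, had 133.4, 103.9 and 156.9 in the controls and 196.5, 188.8 and 135.4 with PTX (log2 change 0.36, 95% interval -0.12 to 0.85, adjusted p = 0.472), and its groups overlapped. F2rl1, a receptor that trypsin-like proteases switch on by cleavage, had 77.4, 75.1 and 118.1 in the controls and 103.2, 94 and 103.1 with PTX (log2 change 0.15, adjusted p = 0.740).

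The kinin receptors Bdkrb1 and Bdkrb2 were near or below background. Bdkrb2, the constitutive receptor for bradykinin, had 27.8, 34 and 33.3 in the controls and 23.1, 10.9 and 15.8 with PTX. Its groups did not overlap, yet every value was below the limit and the probe set was left out of the test, with a limma adjusted p of 0.504 when no filter was used. Bdkrb1, the kinin receptor induced in inflammation, had a log2 change of -0.26 on its tested probe set (-0.06 without control replicate 1), with overlapping groups. Chrm3, the muscarinic receptor of smooth muscle and glands, had -0.55 (adjusted p = 0.503), and Ptger1, Avpr1a and Oxtr were too low to be tested. The tested Gq-class probe sets had a median log2 change of 0.01.

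**Figure D4:**
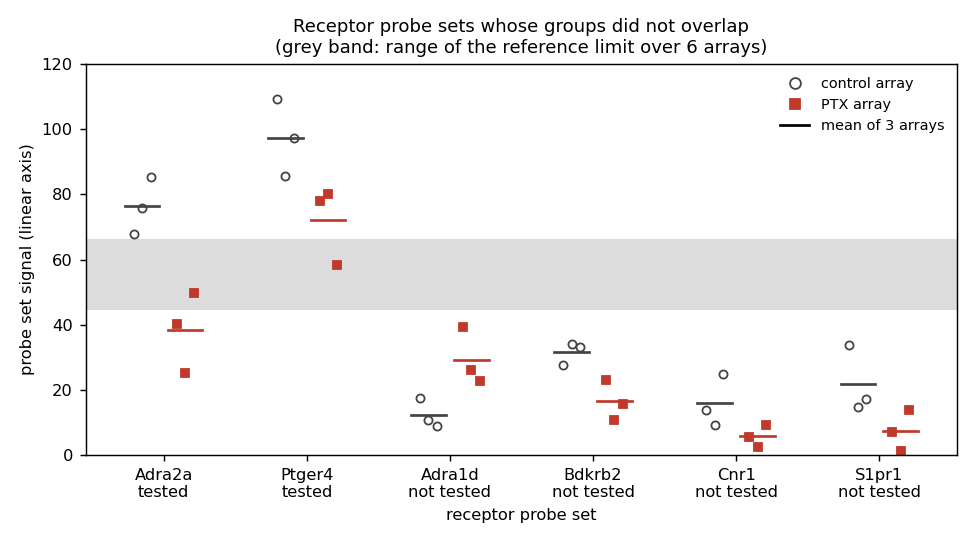
Probe set signal (linear axis from 0) on each array for the 6 of 48 receptor probe sets whose control and PTX arrays did not overlap (18% of all probe sets on the array did not), with the means of 3 arrays as bars. Adra2a and Ptger4 were in the test; the other 4 lie wholly below the grey band, which spans the reference limit on the 6 arrays, and were not.

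The receptors that couple to several G proteins were all above background. F2r, the main thrombin receptor of fibroblasts, had 2267.5, 2426.8 and 3058.2 in the controls and 2537.2, 1625.4 and 2575 with PTX. Its means were 2584 ± 418 and 2246 ± 538 (SD, n = 3 each), and its log2 change of -0.22 (95% interval -0.70 to 0.27, adjusted p = 0.640) was within the spread of the arrays. PTX replicate 2 was its lowest array, and without it the log2 change was -0.0038. S1pr2, another sphingosine 1-phosphate receptor, had log2 changes of 0.08 and 0.22 on its pair of probe sets. The brighter one had 203.5, 134.8 and 127.5 in the controls and 141.5, 155.1 and 193.7 with PTX.

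Lpar1, a receptor for lysophosphatidic acid, changed its direction with a single array. It had 158.1, 439 and 402.3 in the controls and 400.7, 365.6 and 374.7 with PTX. Control replicate 1 was far below the other 5 arrays, which lay between 365.6 and 439. With all arrays the log2 change was 0.30 (95% interval -0.49 to 1.09, adjusted p = 0.691), and without control replicate 1 it was -0.14 (adjusted p = 0.641). For the tested probe sets of this class the median was 0.15, and 0.07 with that array left out.

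Genes that make or remove the ligands of these receptors also gave 0 calls over all probe sets tested. Of 42 listed, 31 were measured and 24 tested on their brightest probe set, with 10 positive and 14 negative log2 changes and a median of -0.05. This list was chosen with earlier results of these data known, so the comparisons with all tested that follow cannot test for an excess. At an unadjusted p under 0.05 limma marked 3 genes as higher, against 8.19% of all genes on their brightest probe set, and 0 as lower. Over all 32 tested probe sets of these genes 6 were marked, each higher, against 7.97% of all tested. These 3 were Enpp2 (1.49), which makes the Lpar1 ligand, and the lipid phosphate phosphatases Plpp1 (0.60) and Plpp2 (0.49), which break it down. Enpp2 had 80.5, 69.1 and 70 in the controls and 186.3, 240.2 and 283.3 with PTX, with a limma adjusted p of 0.0530. Without control replicate 1 Enpp2 passed (adjusted p = 0.00584), as did Plpp1 (adjusted p = 0.00791). The brightest Plpp2 probe set did not (adjusted p = 0.279), while its other one, with a log2 change of 1.41, did (adjusted p = 0.0279). The dimmest probe set of Plpp1 had 0.16 with overlapping groups. Ptgis, the synthase of the prostacyclin that Ptgir binds, came next, with a log2 change of -0.30 (adjusted p = 0.409) and groups that did not overlap.

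The G proteins, effectors and regulators behind the receptors showed the same number of calls, 0 of 31 tested genes, from 45 listed and 38 measured. Their median log2 change was -0.02, with 12 positive and 19 negative. Gnai2, the most widely expressed Gi alpha subunit and a substrate of the toxin, had 0.02 on its brightest of 3 probe sets and -0.16 on another, both with overlapping groups. Its remaining probe set had 1076.4, 633.2 and 1050.4 in the controls and 1219.7, 1184.4 and 1119.7 with PTX, which did not overlap (0.39, adjusted p = 0.454). Gnao1, the Go alpha subunit, had 0.07 with overlapping groups. Gnai1, another Gi alpha subunit, had -0.26 (adjusted p = 0.614) at signals of which 1 of 6 was above the limit, and Gnai3 has no value here. The smallest p values were those of Gng10, a gamma subunit (1.17, adjusted p = 0.137), and Itpr1, an inositol trisphosphate receptor through which Gq receptors release calcium (0.49, adjusted p = 0.366). Rock2, a kinase that acts on the actin cytoskeleton (0.62), and Plcb3, a phospholipase C of the Gq pathway (-0.30), followed. For Rock2 the value was 0.22 without control replicate 1, and -0.03 on its other probe set. The other Itpr1 probe sets were too low to be tested, with log2 changes of both signs from -0.21 to 0.34. The 375 tested probe sets named rc_AA799 or rc_AA800 were lower on control replicate 1 than the mean of the other 5 arrays by a median log2 difference of -1.02, against 0.06 for all tested. Gng10 is read by one of them, and without control replicate 1 it had 0.97 and an adjusted p of 0.00791.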

How the data were processed

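Per the labels, biotin-labelled cRNA from each of the 6 cultures was hybridised to a 1-colour Affymetrix array, and per the submitters' processing notes the authors used GCOS; version and scaling target are not stated. The deposited values are linear signal intensities of 8740 probe sets, and their 2% trimmed means lay between 493 and 495, so no further scaling was applied. No 2 arrays were identical. Detection calls were not used. Sample titles give the groups and replicate numbers.

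Gene names come from the platform annotation, with 7006 assigned to 1 gene, 308 to several and 1426 unnamed, and 6985 of the 7006 were matched by Entrez identifier to current RefSeq symbols (GRCr8). The members, classes and lists were chosen with earlier results of these data known. Signals were analysed as log2(signal + 16), which understates changes of low signals. Probe sets under the 40th percentile of mean log2 signal, a signal of about 33.3, were left out, and limma 3.58.1 in R 4.3.3 tested the rest (eBayes with an intensity trend, two-sided, Benjamini-Hochberg threshold 0.05). No set test was run. In 20 simulations of 5244 probe sets with 200 changed, limma recovered 7.20% of changes of 1.5-fold, 46.9% of 2-fold and 89.0% of 4-fold, with 5.23% of calls false. Whether these rates carry over to the present arrays, where control replicate 1 stood apart, was not tested.

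Per-array values are given for receptors above background, with an unadjusted p under 0.05 or with groups that did not overlap; for Adora1 and Ptgir they were added after seeing the values. Of the ligand and G protein lists, the 4 genes with the smallest p and the Gi and Go alpha subunits are named. The 18 alternatives changed the pseudocount, filter, scaling, model, block, weights, probe sets or arrays.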

Additional observations from a re-analysis of the deposited data

How the results depend on the processing

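No receptor probe set was called under any of the 18 alternatives. Over the whole table the count of calls was 4 with all arrays as reported. It was 2 with a pseudocount of 1, 7 with 64, 2 with quantile normalization, 0 without a trend, 9 with robust variances, 81 with array quality weights and 8 when probe sets named rc_AA799 or rc_AA800 were removed. Leaving out each array in turn gave 0 to 115 calls: 115 without control replicate 1, 30 without control replicate 3 and 0 without PTX replicate 1, 2 or 3 (361, 379 and 381 at an unadjusted limma p under 0.05). With the replicate number as a block there were 0 calls (552 at an unadjusted p under 0.05; smallest limma adjusted p = 0.0567). Deviations of same-numbered arrays correlated at -0.09, -0.11 and -0.01, and those of differently numbered arrays at -0.05 to 0.10. With 3 arrays a group this cannot decide whether the numbers pair the samples. The cause of the shifts in the count of calls was not tested. With the filter applied anew, the median receptor change ranged from -0.07 to 0.14 over the arrays left out.

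The number of receptor genes above background was 8 at the 95th percentile of the reference and 22 by the 40th percentile of all probe sets, and 13 to 14 without single arrays. Of 451 values of the 26 tested receptor probe sets under alternatives, 31 changed sign, none of them called. Adora2a became 0.00012 with a pseudocount of 1 and 0.14 with array weights, where Ptgir became 0.46, Avpr2 0.11, Adra1b 0.11 and Lpar1 -0.069, and S1pr2 became -0.0022 with quantile normalization. Leaving out arrays took Adora2a from -0.094 to 0.17, Adra1b from -0.12 to 0.15, Adrb1 from -0.21 to 0.022, Lpar1 from -0.14 to 0.55, Ptgir from -0.74 to 0.32, Avpr2 from -0.73 to 0.45, Adra2b from -0.12 to 0.41, Chrm2 from -0.18 to 0.17, Bdkrb1 from -0.65 to 0.052, dimmer probe sets of Ptger3 from -0.10 to 0.35 and of Ptgfr from -0.082 to 0.14, and the probe sets of S1pr2 from -0.034 to 0.28 and from -0.0073 to 0.35. Signals near background limit Adra2a and the 4 untested probe sets.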
